A study of Oryza sativa with 4 samples.

Results

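The peaks described here are the places on unplaced rice sequences at which tagged OsMADS27 was called as enriched over input chromatin. They were chosen by sequence name alone, as every listed peak that does not lie on chromosomes 1 to 12. This gave 523 of the 72738 peaks of replicate 1 (0.719%) and 533 of the 73366 peaks of replicate 2 (0.726%), on 39 sequences whose names all start with Syng_TIGR, AC or AP. The study mapped OsMADS27 by chromatin immunoprecipitation and sequencing (ChIP-seq) in young, regenerating and untreated seedlings of Pusa Basmati 1, an indica rice. All plants were transgenic and overexpressed OsMADS27 with 3 Myc tags at its N terminus, and those that gave the input carried the same transgene. The 4 libraries were 2 pull-downs on Myc-Trap agarose and 2 inputs, and each pull-down was compared with the input of its own number. The promoter of the transgene, the number of lines and whether the replicates came from separate plants are not given in the labels, and the control was input rather than an untagged plant.

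OsMADS27 belongs to the MADS-domain transcription factors, which bind DNA as dimers at AT-rich sites named CArG boxes, and it is known as a nitrate-responsive regulator of rice roots. Unplaced sequences are pieces of a genome assembly that could not be assigned to a position on a chromosome. In plants they are often rich in repeats such as transposons, satellites and ribosomal DNA, or are alternative copies of regions that are also on a chromosome. Short reads from such DNA can match several places at once, and the sources used here do not say how such reads were placed. The genome build of the lists is not given either, so positions are those of the lists, no base sequence is shown and no peak was assigned to a gene.

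Depth was high and similar in all libraries, with 136923044 and 130482505 tags kept in the pull-downs and 131452322 and 127964706 in the inputs. The kept input tags amount to a genome-wide average of 16.4 tags over a position in replicate 1 and 16.0 in replicate 2, and the local input background below is given in tags or as a multiple of this average. Tags over a summit, the position of highest signal in a peak, cannot exceed 500, because at most 5 tags were kept for each start position on each strand. Fold enrichment is the authors' ratio of pull-down to local input background at the summit. The 2 pull-downs form a single group with no contrast, and peaks of a library are not replicates, so values of both replicates are set side by side with no p-value. Ranges in brackets after tag numbers are exact 95% Poisson intervals. Those after shares are 95% Wilson intervals, and neither covers more than counting error.

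Peaks were dense on the unplaced sequences, with a higher pooled density on the Syng_TIGR sequences than on the AC and AP sequences. The 34 Syng_TIGR sequences, each 0.217 to 22.3 kb long up to its last peak, carried 272 peaks in replicate 1 and 270 in replicate 2, or 942 and 935 peaks per Mb. The 5 AC and AP sequences, 32.3 to 205.9 kb long, carried 251 and 263 peaks, or 423 and 443 per Mb. Chromosomes 1 to 12 held 194 and 195 per Mb. Single Syng_TIGR sequences were uneven, and 12 with at least 5 peaks in each list held more than 1 peak per kb in both. Some other short ones were sparse, such as Syng_TIGR_021 (7.81 kb) with 0.128 peaks per kb in each replicate and Syng_TIGR_039 (4.27 kb) with 0.234. Each of these held 1 peak per list. Peaks covered 11.1% and 11.4% of the Syng_TIGR sequences, 4.05% and 4.41% of the AC and AP sequences, and 2.03% and 2.07% of the chromosomes. The true ends of the sequences are not in the lists, so densities are upper values where a sequence runs on beyond its last peak, and sequences without any peak are not counted.

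Windows of 10 kb compare pieces of equal length, but only full windows up to the last peak were counted. Sequences under 10 kb up to their last peak, among them the dense Syng_TIGR_007, Syng_TIGR_042 and Syng_TIGR_043, therefore gave no window. The 73 full windows on unplaced sequences held a median of 3 peaks in both replicates, and the 37304 windows on chromosomes a median of 0. At least 10 peaks lay in 12 (16.4%) and 13 (17.8%) of the unplaced windows, against 5.65% and 5.88% of the chromosomal ones. The fullest unplaced windows held 23 and 22 peaks and the fullest chromosomal windows 34 and 36. These maxima were taken over 73 and 37304 windows, so they do not show which set held the densest pieces.

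**Figure D1:**
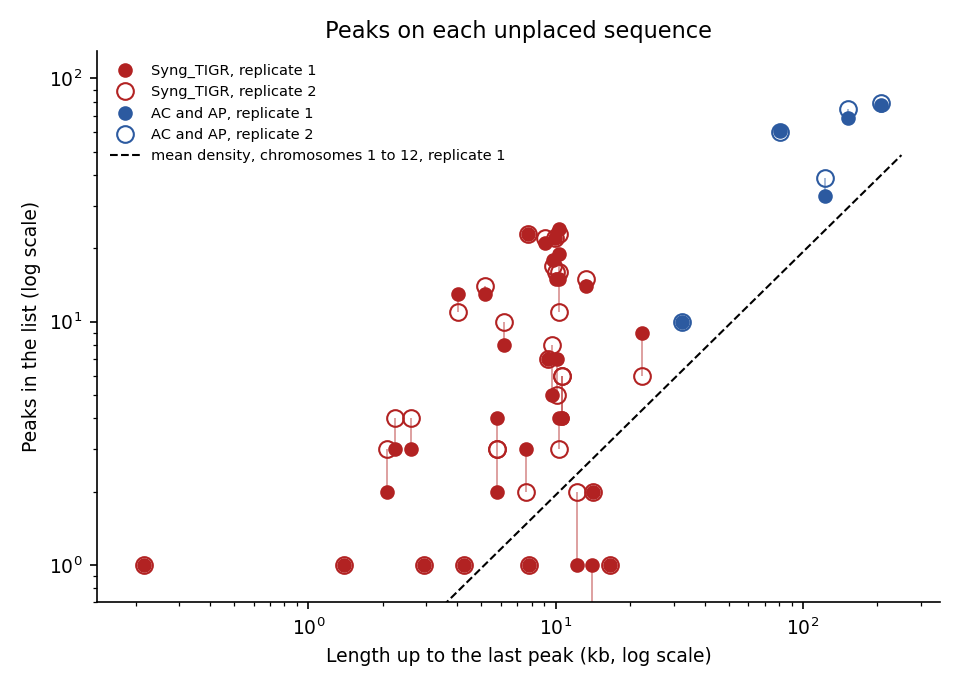
Number of peaks on each of the 39 unplaced sequences (log scale) against its length up to the last peak (kb, log scale), for replicate 1 (filled) and replicate 2 (open), with a line joining both values of a sequence. The dashed line is the mean density of chromosomes 1 to 12 in replicate 1, 194 peaks per Mb; the sequence with 1 peak in replicate 1 and none in replicate 2 (Syng_TIGR_004) has a line that leaves the plot at the bottom. Most sequences lie above the line in both replicates.

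Of the 39 sequences, 38 had a peak in both lists and 37 had a peak found in both. Syng_TIGR_004 had its single peak in replicate 1, and Syng_TIGR_008 had 1 peak in each list at different places. Peak numbers were equal in both replicates on 11 sequences and at most 1 apart on 29. The 8 sequences with the most peaks were AP008246 (78 and 79 peaks), AP008247 (69 and 75), AC156495 (61 and 60), AC160949 (33 and 39), Syng_TIGR_034 (24 and 23), Syng_TIGR_007 (23 and 23), Syng_TIGR_009 (22 and 22) and Syng_TIGR_031 (21 and 22).

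Among the 21 sequences with at least 5 peaks in each list, density by the mean of both replicates was highest on Syng_TIGR_007, closely followed by Syng_TIGR_043 (3.24 and 2.74 peaks per kb). Its 7.69 kb held 2.99 peaks per kb in each replicate, and peaks covered 40.9% and 40.7% of it. The lowest density was on AC160949, with 0.270 and 0.319 peaks per kb and 2.59% and 3.25% covered. More than 1 peak per kb in both replicates was found on 12 of the 21, all of them Syng_TIGR sequences. The highest coverage of the 21 was on Syng_TIGR_042, 47.1% and 53.5%.

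The widest peaks lay on these densely covered pieces. A region of Syng_TIGR_042 from 3059 to 3684 was 626 bp wide in replicate 1, and its counterpart from 3071 to 3889 was 819 bp wide in replicate 2. The first held 395 tags (357 to 436) over a background of 230, and the second 380 tags (343 to 420) over 225, with a fold of 1.65 in both. Next in replicate 1 were Syng_TIGR_042 at 3738 to 4224 (487 bp) and Syng_TIGR_031 at 4072 to 4533 (462 bp). In replicate 2 they were Syng_TIGR_005 at 5609 to 6162 (554 bp) and Syng_TIGR_031 at 4073 to 4538 (466 bp). Peaks of at least 200 bp made up 14.3% and 16.3% of the Syng_TIGR peaks, 3.98% and 4.94% of the AC and AP peaks, and 7.06% and 7.71% of the chromosomal peaks.

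Unplaced peaks stood on a higher input background than chromosomal peaks, and their fold enrichment was slightly lower. The median background was 186 tags in replicate 1 (quartiles 116 and 263) and 179 in replicate 2 (111 and 254), which is 11.3 and 11.2 times the genome-wide average. On chromosomes 1 to 12 the medians were 141 and 136 tags, 8.58 and 8.50 times the average. A background of at least 10 times the average lay under 57.0% of the unplaced peaks in both replicates (Wilson intervals 52.7 to 61.2% and 52.8 to 61.2%), against 40.0% and 40.1% of the chromosomal peaks. The median fold was 1.66 and 1.74 on unplaced sequences and 1.79 and 1.83 on chromosomes. The fold reached 3 or more at 8 unplaced peaks in each replicate, of 523 and 533, against 2.16% and 3.05% of the chromosomal peaks.

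The Syng_TIGR sequences and the AC and AP sequences differed little in background and fold. Their median backgrounds were 186 and 185 tags in replicate 1 and 182 and 176 in replicate 2, and their median folds 1.67 and 1.63 in replicate 1 and 1.74 and 1.73 in replicate 2. Single sequences differed more. AC155918, with 10 peaks in each list, had a median of 122 tags over a background of 55.5 in replicate 1 and a median fold of 2.13. Syng_TIGR_032, with 7 peaks in each list, had a median of 480 tags over a background of 357 and a median fold of 1.29. Across the 412 shared pairs, fold fell as background rose (Spearman's rho -0.80 in replicate 1 and -0.79 in replicate 2), a description in which each fold has that background as its divisor.

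Pull-down signal at unplaced peaks was high. The median summit held 331 and 328 tags, against 274 and 264 on chromosomes. Summits with at least 450 of the possible 500 tags numbered 68 of 523 and 75 of 533 unplaced peaks (Wilson intervals 10.4 to 16.2% and 11.4 to 17.3%), and they made up 5.62% and 5.08% of the chromosomal peaks. The AC and AP sequences held more of them, 17.1% and 18.6% of their peaks (Wilson intervals 12.97 to 22.28% and 14.4 to 23.8%), than the Syng_TIGR sequences, 9.19% and 9.63% (6.30 to 13.2% and 6.66 to 13.7%). Most of these lay on the AP sequences, with 18 and 22 on AP008246 and 13 and 15 on AP008247. AC156495 and AC160949 held 6 each in both replicates and AC155918 held 0, so the difference was not shared by all sequences of this kind. At the ceiling itself were 6 and 9 unplaced peaks (1.15% and 1.69%), against 0.309% and 0.240% of the chromosomal peaks. At such summits the ceiling limits the fold that can be recorded, and how far this touches the lower folds was not tested. Peak length was alike, with medians of 88 bp on unplaced sequences and 90 bp on chromosomes in both replicates.

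Pileup and length were then matched between unplaced and chromosomal peaks. Chromosomal peaks were weighted so that bands of tags (50 tags wide) and of length had the same shares as among the unplaced peaks, and every unplaced peak had chromosomal peaks in its band. The weighted chromosomal background was 178 tags in replicate 1 and 177 in replicate 2, beside 186 and 179 on unplaced sequences. The weighted chromosomal fold was 1.71 and 1.75, beside 1.66 and 1.74. The weighted share found in both lists was 80.5% and 78.4%, beside 80.3% and 78.2%. Chromosomal peaks of like pileup and length thus had values close to those of the unplaced peaks, with a slightly higher median fold in replicate 1 and a nearly equal one in replicate 2.

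**Figure D2:**
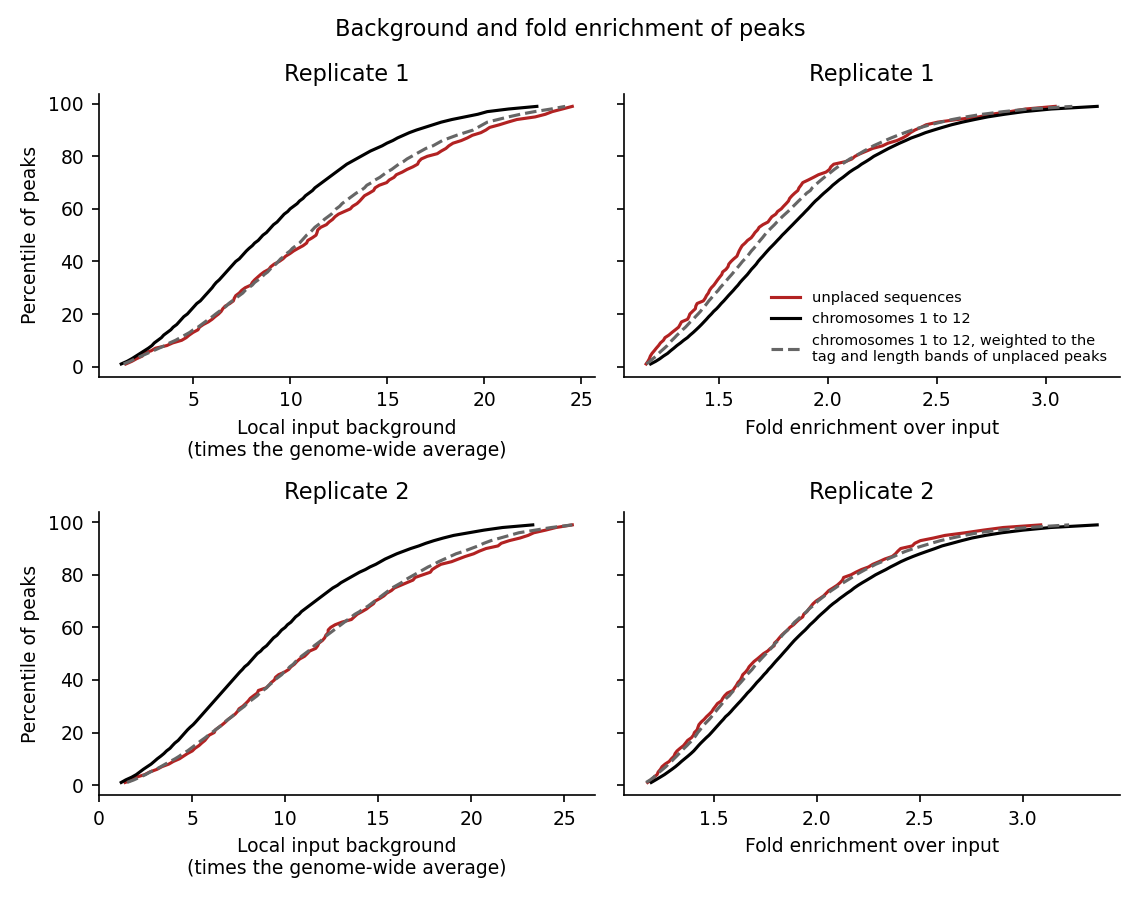
Percentiles of peaks (vertical axes) by local input background, in multiples of the genome-wide average (left), and by fold enrichment (right), in replicate 1 (top) and replicate 2 (bottom). Unplaced peaks (red) are shifted from all chromosomal peaks (black, median background 8.58 and 8.50 times the average) to medians of 11.3 and 11.2, and lie near the chromosomal peaks weighted to their bands of tags and length (dashed grey).

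Most unplaced peaks were found in both replicates. A partner, an overlap of at least 50% of the shorter peak, was present for 420 of the 523 peaks of replicate 1 (80.3%, Wilson interval 76.7 to 83.5%), where 77.2% of all peaks of the list had one. In replicate 2 it was present for 417 of 533 (78.2%, 74.5 to 81.5%), where 76.2% of all peaks had one. These shares are near those of all peaks. Pairing each peak with 1 partner gave 412 pairs. Their summits lay a median of 2 bp apart, and 342 pairs (83.0%) lay within 10 bp.

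Within bands of background the shares were near those on chromosomes. Below 2 times the average, 5 of 13 and 5 of 14 unplaced peaks had a partner (38.5% and 35.7%), beside 39.4% and 36.9% of the chromosomal peaks. From 5 to 10 times, 84.6% and 81.2% had one, beside 80.3% and 79.7%. At 15 times and above it was 80.9% and 80.1%, beside 84.6% and 81.2%. The 103 and 116 unplaced peaks without a partner were narrower, with a median length of 65 bp in both replicates against 92 and 96 bp for the others, and their median -log10 q was 7.59 and 11.2 against 13.2 and 15.

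Fold enrichment of the 412 pairs was similar in both lists. Spearman's rho was 0.88 across these pairs, and that of the background was 0.98; the pairs share the sequence, the libraries and the ceiling, so these are descriptions. The fold was higher in replicate 2 at 254 pairs (61.7%), beside 56.9% of the chromosomal pairs, and the median ratio was 1.02 in both sets. The largest difference in peak number was on Syng_TIGR_033, with 19 peaks in replicate 1 and 11 in replicate 2. Of these, 9 were found in both, and the 10 of replicate 1 without a partner had a median fold of 1.44, beside 1.45 for all 19. Their median -log10 q was 8.07, beside 6.4 for those of replicate 1 with a partner.

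**Figure D3:**
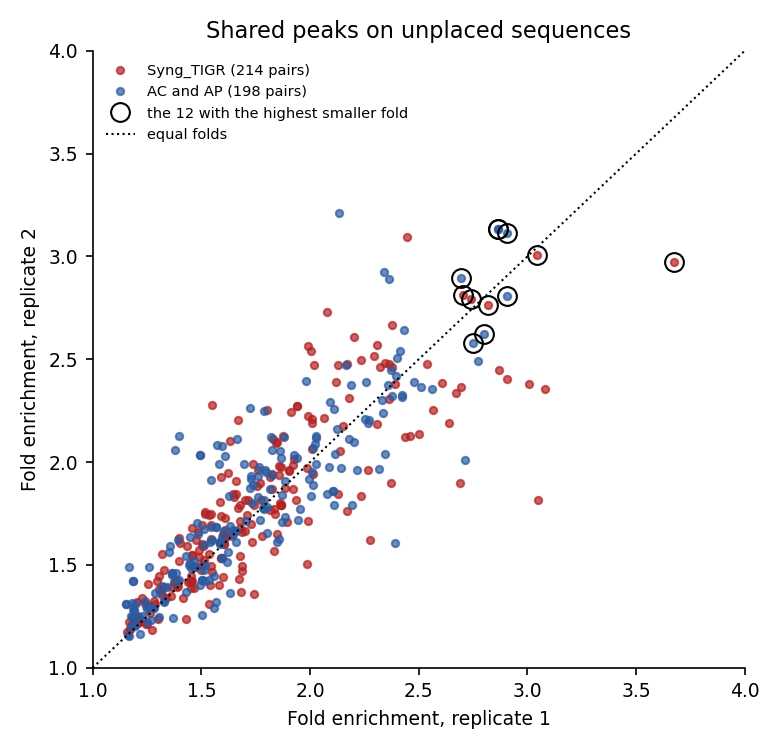
Fold enrichment in replicate 1 (horizontal) and replicate 2 (vertical) of the 412 pairs found in both lists on unplaced sequences, by kind of sequence; circles mark the 12 pairs with the highest smaller fold and the dotted line equal folds. Most pairs lie near the line, and the pair at a fold of 3.68 and 2.98 is on Syng_TIGR_047.

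The 12 pairs with the highest smaller fold of both lists lay on 9 sequences, 5 of them Syng_TIGR. Their folds ran from 2.58 to 3.68, and the first of them ranked 417 among all 55255 pairs of the series. It was on Syng_TIGR_045 at 14754 to 14815, with 186 tags in each replicate (160 to 215), a background of 58 tags in replicate 1 and 60 in replicate 2, and folds of 3.04 and 3.01. The second was on Syng_TIGR_047 at 1428 to 1514, where replicate 1 had 110 tags (90.4 to 133), a background of 28 and a fold of 3.68, and replicate 2 had 90 tags (72.4 to 111), 29 and 2.98. The third was on AC160949 at 13279 to 13336, with 332 tags (297 to 370) and 329 tags (294 to 367) and folds of 2.91 and 3.11. In 7 of the 12 the background was at least 5 times the average in both lists, and in 2, those on Syng_TIGR_047 and Syng_TIGR_029, it was under 2 times.

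Next in rank came a pair of peaks on AP008247 with the same values. One lay at 24713 to 25040 and the other at 147622 to 148031, with summits 122892 bp apart. Each held 438 tags (398 to 481) in replicate 1 and 421 tags (382 to 463) in replicate 2, with local backgrounds of 146 and 131 and folds of 2.87 and 3.14. Their -log10 q, 69.1 and 78.5, was the highest among the unplaced peaks of either list. The same tag numbers in both replicates occurred at 28 chromosomal pairs on 10 chromosomes, 21 of them also with the same folds.

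The other 7 had folds of 2.58 to 2.91. They were AP008246 at 30627 to 30689 (2.91 and 2.81), Syng_TIGR_029 at 1790 to 1855 (2.82 and 2.76), Syng_TIGR_042 at 386 to 436 (2.74 and 2.79) and Syng_TIGR_005 at 2229 to 2386 (2.70 and 2.81). The remaining ones were AP008246 at 97079 to 97145 (2.69 and 2.90), AC156495 at 9060 to 9186 (2.80 and 2.63) and AP008246 at 35229 to 35279 (2.75 and 2.58). The highest folds of a single list without a partner in the other were 3.51 in replicate 1, on AP008246 at 146626 to 146710 (72 tags, 56.3 to 90.7), and 3.60 in replicate 2, on Syng_TIGR_029 at 1512 to 1637 (65 tags, 50.2 to 82.8).

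Values of unplaced peaks were next compared one by one with those of chromosomal peaks. Of the 412 unplaced pairs, 38 (9.22%, Wilson interval 6.79 to 12.4%) had the same tag number and the same length in both lists as at least one chromosomal pair. Among chromosomal pairs, 9.46% had such an equal on another chromosome, so equal values were about as frequent on the chromosomes themselves. The 38 lay on 22 of the 39 sequences, and 32 of them also had equal folds. The tag numbers alone were equal for 334 pairs (81.1%), near the 83.1% of chromosomal pairs. With every deposited value of a single list equal (pileup, length, fold, p and q), 71 unplaced peaks of replicate 1 (13.6%) and 82 of replicate 2 (15.4%) had a chromosomal counterpart, beside 13.4% and 13.2% of chromosomal peaks with one on another chromosome.

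The 5 pairs with the most equal chromosomal pairs had backgrounds of 13.4 to 19.9 times the average in replicate 1, above the unplaced median of 11.3. Their folds ran from 1.21 to 1.76, beside unplaced medians of 1.66 and 1.74. Syng_TIGR_050 at 1189 to 1278 had 17 equal pairs on 9 chromosomes, the first on chromosome 2 at 16932268 to 16932357. It held 277 tags (245 to 312) and 294 tags (261 to 330), with folds of 1.21 and 1.23. AC156495 at 22529 to 22585 had 11 on 8 chromosomes, and its folds were 1.38 and 1.42 at 470 and 451 tags. Syng_TIGR_024 at 6167 to 6247 had 10 on 7 chromosomes (438 and 419 tags, folds 1.39 and 1.4), Syng_TIGR_042 at 4974 to 5053 had 10 on 7 (438 and 444 tags, folds 1.52 and 1.76), and Syng_TIGR_034 at 2289 to 2341 had 6 on 5 (437 and 427 tags, folds 1.69 and 1.66). The pairs next in rank, with 5 equal pairs each, were unlike each other. Syng_TIGR_007 at 2046 to 2122 had a background of 12.2 times in replicate 1 and folds of 1.87 and 1.79. Syng_TIGR_034 at 6966 to 7018 had 4.93 times and folds of 2.69 and 2.36. Of the 38 pairs, 19 had a single equal chromosomal pair.

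On Syng_TIGR_047 every peak of both lists had a counterpart on chromosome 3 with all deposited values equal and at one constant distance. Its 3 peaks of replicate 1 at 1428 to 1514, 1695 to 1873 and 1927 to 1991 corresponded to chromosome 3 at 2442 to 2528, 2709 to 2887 and 2941 to 3005. They held 110, 108 and 77 tags, with folds of 3.68, 2.91 and 1.87. Its 4 peaks of replicate 2 at 1432 to 1513, 1696 to 1877, 2433 to 2482 and 2541 to 2594 corresponded to chromosome 3 at 2446 to 2527, 2710 to 2891, 3447 to 3496 and 3555 to 3608. They held 90, 75, 56 and 130 tags, with folds of 2.98, 2.40, 2.80 and 2.62. Each of the 7 was exactly 1014 bp farther along on chromosome 3, and the backgrounds were low, at 1.19 to 3.00 times the average. A peak with the values of the unplaced peak with the highest fold of replicate 1, at 3.68, is therefore also listed near the start of chromosome 3.

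Syng_TIGR_013 had such a counterpart on chromosome 4. In replicate 1, its peaks at 6469 to 6655 (385 tags, fold 2.13) and 7500 to 7550 (65 tags, fold 2.52) equalled chromosome 4 at 22138695 to 22138881 and 22139726 to 22139776. In replicate 2, its peaks at 5794 to 5843 (245 tags, fold 1.63) and 6473 to 6663 (355 tags, fold 1.85) equalled 22138020 to 22138069 and 22138699 to 22138889. The distance was 22132226 bp in all 4 cases. The replicate 1 list held 1 further peak on Syng_TIGR_013. Neighbouring peaks with all values of a list equal and matching spacing on 1 chromosome were found on 6 unplaced sequences in each replicate: Syng_TIGR_005, Syng_TIGR_013, Syng_TIGR_034, Syng_TIGR_042 and Syng_TIGR_047 in both, Syng_TIGR_022 in replicate 1 and Syng_TIGR_012 in replicate 2. No share of chromosomal peaks in such stretches is given here, so they cannot be called particular to unplaced sequences.

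Order and spacing were then used, which the match of values does not use. A run was taken as at least 3 unplaced pairs whose equal pairs lie on 1 chromosome, in 1 orientation, with each step differing by at most 2 bp between summits of replicate 1. With tags and length equal in both lists there was 1 run, on Syng_TIGR_005, holding 3 of the 412 unplaced pairs (0.728%) where 2.28% of chromosomal pairs were in a run on another chromosome. The 3 pairs had their summits at 9571, 9755 and 9902 and matched chromosome 5 at 12442, 12259 and 12112, in reverse order. They held 287, 293 and 419 tags in replicate 1 and 300, 289 and 388 in replicate 2.

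Length depends on where the signal crosses the threshold, so runs were also sought with equal tags alone, a choice made after the data were examined. Then 132 runs of 3 to 6 pairs were found on 11 unplaced sequences, holding 85 of the 412 pairs (20.6%, Wilson interval 17.0 to 24.8%). Among chromosomal pairs 19.5% were in such a run on another chromosome, so the share on unplaced sequences was near that of the chromosomes. Among pairs under 450 tags in both lists the shares were 18.9% and 17.6%. The runs fell at 99 separate places on all 12 chromosomes, 67 in the same orientation and 65 reversed. Fold was not used in the match, and 670 of the 950 folds compared (70.5%) were equal to the deposited digits.

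A pair of sequences made up most of the runs. Syng_TIGR_031 and Syng_TIGR_034 had 47 runs each, 94 of the 132 (71.2%), on all 12 chromosomes. Several of these runs can fall at the same place, and the 94 lay at 62 separate places, of 99 for all runs. Without Syng_TIGR_031 and Syng_TIGR_034, 55 of the other 370 pairs (14.9%) were in a run. On Syng_TIGR_031, 12 of its 21 pairs were in runs, and on Syng_TIGR_034, 18 of 21. The next were AP008247 with 15 runs and Syng_TIGR_007 with 11.

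The longest runs held 6 pairs, and 4 of these 5 were on Syng_TIGR_034. Its summits at 449, 681, 1251, 1701, 1896 and 2329 held 390, 361, 389, 433, 278 and 437 tags in replicate 1 and 361, 393, 392, 439, 252 and 427 in replicate 2. The same 6 tag numbers in both replicates were found on chromosome 2 from 1811194 to 1813075, on chromosome 5 from 12448633 to 12450514 and on chromosome 6 from 22918301 to 22920182. The stretch measured 1880 bp between its outer summits on Syng_TIGR_034 and 1881 bp on each chromosome. On chromosomes 5 and 6 all 12 folds equalled those of Syng_TIGR_034, which ran from 1.48 to 2.27, and on chromosome 2 there were 6 equal folds of 12. The widths were less alike, as the peak at 2329 was 53 bp wide in replicate 1 and its chromosome 2 counterpart 139 bp.

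The other 6-pair run of Syng_TIGR_034 covered another stretch, from 5136 to 9152, and matched chromosome 4 from 33242130 down to 33238112 in reverse. Its tags in replicate 1 were 226, 280, 262, 155, 313 and 432, and 3 of its 12 folds were equal. The 6-pair run of Syng_TIGR_031 covered its summits 1280, 2617, 2881, 5952, 6347 and 6554, with 397, 447, 361, 335, 387 and 370 tags in replicate 1 and 377, 429, 393, 343, 414 and 363 in replicate 2. It matched chromosome 7 from 22290418 down to 22285142, over 5274 bp on the unplaced sequence and 5276 bp on the chromosome, with 8 of 12 folds equal. Within its runs, the Syng_TIGR_031 peak at 2881 matched 34 chromosomal peaks on 11 chromosomes, with folds of 1.94 to 2.2 in replicate 1 beside its own 1.94.

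**Figure D4:**
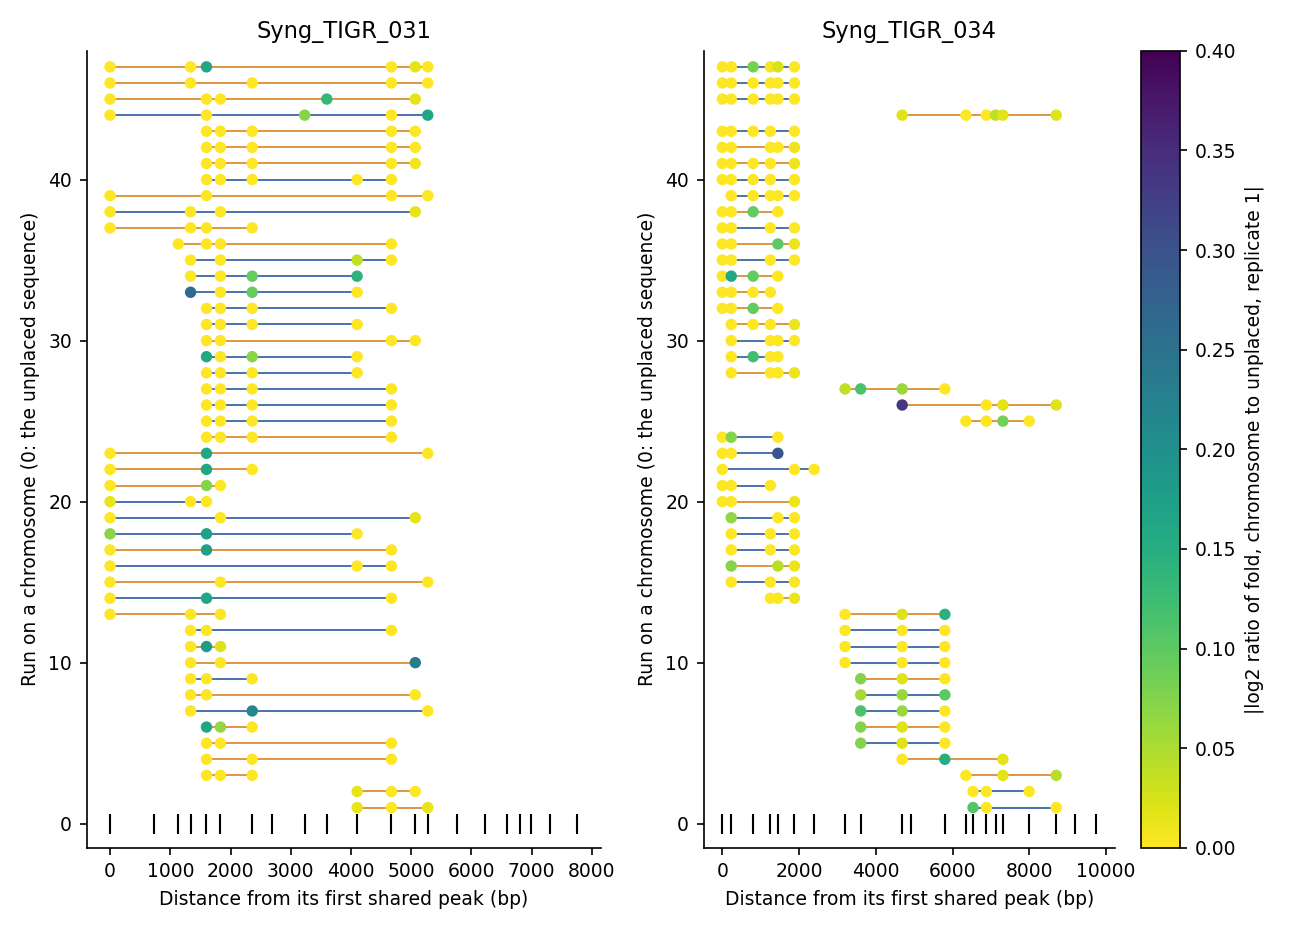
Each row is 1 of the 47 runs of Syng_TIGR_031 (left) and Syng_TIGR_034 (right) with equal tags, drawn by distance in bp of its summits from the first shared peak of the unplaced sequence; ticks at row 0 are all shared peaks of that sequence. Blue lines are runs in the same orientation and orange lines reversed ones, and point colour gives the size of the log2 ratio of fold, chromosome to unplaced sequence, in replicate 1. The same few summits recur in row after row, and points at a ratio of 0 have the fold of the unplaced peak.

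These sequences also shared peaks with each other. The Syng_TIGR_031 summits at 2881 and 3113 had the tag numbers of the Syng_TIGR_034 summits at 681 and 449, 361 and 390 in replicate 1 and 393 and 361 in replicate 2, with 232 bp between them on both and in opposite order. On chromosomes, 19 of the 47 Syng_TIGR_031 runs had a Syng_TIGR_034 run within 10 kb, in 27 combinations. In 26 of the 27 the orientations were opposite, as between the sequences themselves, and in 18 the runs overlapped. Where runs of both sequences hold both shared summits, the opposite orientation follows from the match between the sequences and is not a separate observation. Syng_TIGR_007 at 2076 and 3474 matched Syng_TIGR_031 at 3113 and 4511 with the same spacing.

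The last peaks of AP008246 and the first peaks of AP008247 had the same values at one constant distance, a match that was sought after the data were examined. In replicate 1, 4 peaks were equal in pileup, length, fold, p and q, each lying 185927 bp farther along on AP008246. They were at 188510 to 188616 (167 tags, fold 1.49), 190120 to 190218 (68 tags, 1.66), 203519 to 203616 (396 tags, 1.59) and 203669 to 203847 (328 tags, 2.11). On AP008247 the first of them lay at 2583 to 2689 and the last at 17742 to 17920. In replicate 2, 6 peaks were equal at the same distance, from 188493 to 204593 on AP008246 and from 2566 to 18666 on AP008247, with folds of 1.45 to 2.72. The shared range, up to the last peak of AP008246, held 6 of its peaks and 5 of AP008247 in replicate 1, and 7 and 6 in replicate 2. Among the pairs of unplaced sequences, this was the only one with at least 2 peaks equal in all values at one distance in the same orientation. Peaks with these values are therefore listed on each sequence and counted on both. Whether the equal entries come from the same DNA was not tested.

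Syng_TIGR_005 and Syng_TIGR_043 each had a run at a single chromosomal place, and AP008247 had 15 runs at 15 places on 8 chromosomes. With equal tags alone, the Syng_TIGR_005 run grew to 5 pairs, from 5034 to 9902, against chromosome 5 from 16982 down to 12112. Syng_TIGR_043 had a single run, of 5 pairs from 1672 to 3476, which matched chromosome 10 from 14811878 down to 14810073. Its 5 summits held 286, 304, 320, 279 and 144 tags in replicate 1 and 287, 291, 328, 284 and 150 in replicate 2, and 9 of the 10 folds were equal. On AP008247 the longest run had 4 pairs, from 110458 to 114198, against chromosome 9 from 8014465 down to 8010725, with all steps equal to the base. None of its 8 folds was equal, although they were close (1.66 to 2.14 on AP008247 and 1.67 to 2.17 on chromosome 9), and 2 of its 4 peaks had at least 450 tags.

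Equal peaks also recurred within the long sequences at fixed distances. On AC156495, the summits at 19672, 21432 and 22085 had the same tag numbers as those at 28596, 30356 and 31010, at distances of 8924, 8924 and 8925 bp. The tags were 295, 316 and 336 in replicate 1 and 274, 325 and 363 in replicate 2, with folds of 1.5, 1.57 and 1.19 in replicate 1 at both places. On AC160949, the summits at 64864, 65867 and 66341 recurred exactly 7023 bp farther on, with 213, 246 and 454 tags in replicate 1 and 206, 233 and 466 in replicate 2. Folds in replicate 1 were equal for the first and second of these (1.73 and 2.03) but 1.73 and 1.44 for the third. On AP008246, the summits at 28566 and 30046 recurred 5208 bp farther on with 310 and 248 tags in replicate 1 and 309 and 246 in replicate 2; folds in replicate 1 were 1.6 at both places for the first but 2.36 and 2.75 for the second. On AC156495 and AC160949, other peaks within these stretches had no equal at that distance. Further equal tag numbers lay at distances seen once, 18187 bp on AC160949 and 8993 and 58267 bp on AP008246. No share of chromosomal pairs with an equal on the same chromosome is given here, so such recurrence cannot be called particular to unplaced sequences.

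**Figure D5:**
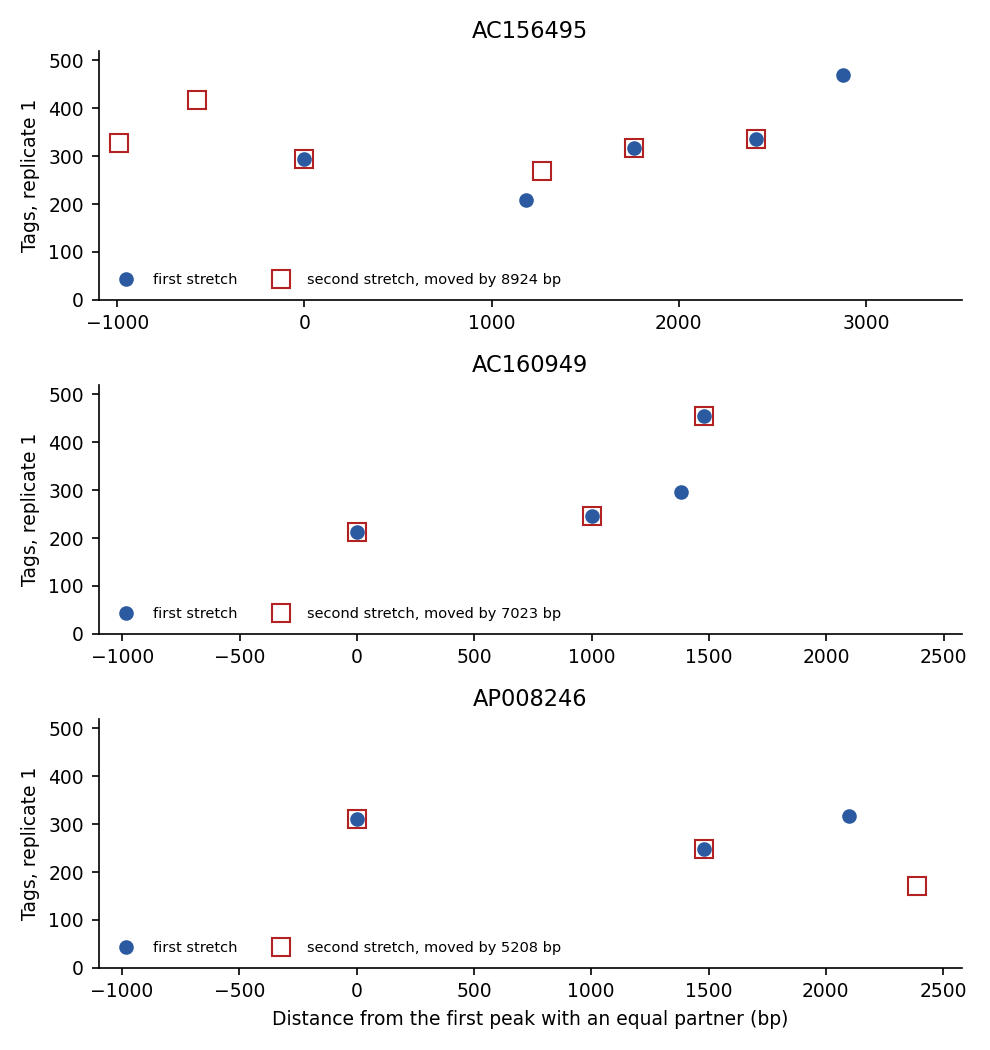
Tags over the summit in replicate 1 (vertical axes) of shared peaks on AC156495, AC160949 and AP008246, by distance in bp from the first peak with an equal partner; blue dots are the first stretch and red squares the second, moved back by 8924, 7023 and 5208 bp. Dots inside squares are peaks with equal tags at that distance, 3, 3 and 2 in number, and the single symbols are peaks of 1 stretch.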

How the data were processed

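Peak lists of 2 pull-downs were used, and the input libraries enter through them. Reads were trimmed with cutadapt, per the submitters' processing notes, and peaks were called per replicate with MACS2 2.2.5 at q 0.05 with a tag size and fragment length of 50 bp, up to 5 duplicates and background windows of 1000 and 10000 bp, as stated per the file headers. The sources used here do not name the aligner or the build. The deposited pileup is a signal, the tags over the summit scaled by 0.960 and 0.981 to the smaller library, per the file headers; divided by that factor, 100% were whole tags within 0.02. Fold enrichment as deposited is the ratio of pileup plus 1 to local background plus 1, from which the background was recomputed. Values of p and q are deposited as −log10; the p was recovered from pileup and background within 2% at 100% and 99.8% of unplaced peaks.

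Peaks were weighted in bands of 50 tags and of length (up to 60, 61 to 89, 90 to 124, 125 to 199 and from 200 bp). Steps of a run were at most 10 kb. Run and overlap searches were tested on simulated data. Named by rule were the 12 pairs of highest smaller fold, the 8 sequences with the most peaks and those of highest and lowest density, the 3 widest peaks of each list, and the 5 pairs and 5 runs with the most matches; other named peaks were chosen after their values were seen. Members, lists and alternatives were chosen with earlier results of these data known. Calculations used Python 3.11.15, NumPy 2.4.6, pandas 2.3.3, SciPy 1.17.1, numba 0.67.0 and matplotlib 3.10.9.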

Additional observations from a re-analysis of the deposited data

How the results depend on the processing

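Shared unplaced peaks numbered 379 to 421 in replicate 1 and 379 to 419 in replicate 2 under any overlap of 1 bp or 50% of the longer peak. With a −log10 q of at least 5 they numbered 334 in each, or 79.7% and 74.4% of the unplaced peaks kept by that limit. All of these counts are within 1.5 times the reported 420 and 417. With that q limit the median fold was 1.77 and 1.83 and the median background 173 and 172 tags. Each of these medians moved by more than 1 SD between replicates, 0.0585 for fold and 4.95 tags for background. No chromosomal median with that q limit is given here. Leaving out either kind of sequence, a choice added after the data were examined, moved neither median by more than 1 SD between replicates. Measured from the first peak, density was 696 and 710 per Mb. Unplaced pairs with an equal chromosomal pair numbered 38 of 412, and 32 (7.77%) with fold also equal, beside 7.69% of chromosomal pairs. With the q limit they numbered 34 of 329 (10.3%, beside 9.02%), and under 450 tags 36 of 350 (10.3%, beside 8.35%). They numbered 334 with tags alone (81.1%, beside 83.1%). When values had to be equal in a single list they numbered 235 without replicate 1 (57.0%, beside 58.4%) and 242 without replicate 2 (58.7%, beside 58.7%). The 1 sequence with a run of equal tags and lengths fell to 0 with steps equal to the base, with at least 5 pairs or with equal folds. With tags alone it rose to 11 sequences, 8 with steps equal to the base, 4 with at least 5 pairs and 9 under 450 tags. Only the counts of equal pairs and of runs thus changed by more than 1.5 times. No paired analysis was possible because each list was called with its own input before deposit and no test compares groups. At 500 tags the ceiling limits both the folds and the distinction between equal values.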
